A study of Homo sapiens with 30 samples.

Results

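The comparison described here is MPC1 knockout (KO) against empty vector (EV) in Molm-14 cells, made with 6 of the 30 RNA-sequencing libraries of the study, and it covered the 14490 genes that passed an expression filter, of 58051 genes counted. Molm-14 is a human acute myeloid leukemia (AML) line with an internal tandem duplication in FLT3, the receptor tyrosine kinase whose activation is common in AML. The KO cells received Cas9 and 1 short guide RNA against MPC1 from a lentiviral vector with a GFP marker, and the EV cells received a control vector with no guide to the gene, with n = 3 libraries in each group. The study asked how reduced pyruvate entry into mitochondria changes AML cells, and it made the same KO and EV groups in MV4-11, another AML line with the FLT3 duplication, and in THP-1, a monocytic AML line. Both Molm-14 groups were grown in RPMI medium with serum and glutamine, and the labels give no other treatment. The sources used here do not say whether the KO cells were a selected population or the progeny of 1 cell, nor whether replicates were separate cultures. The p-values measure the spread between replicate libraries, which may be technical. That spread was estimated in 1 fit over the 18 KO and EV libraries of all 3 lines.

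MPC1 and MPC2 together form the carrier that moves pyruvate, the end product of glycolysis, across the inner mitochondrial membrane, where pyruvate dehydrogenase turns it into acetyl-CoA for the tricarboxylic acid (TCA) cycle. AML cells are arrested at stages of myeloid development. Granulocyte and monocyte progenitors make the proteases and peroxidase of primary granules in a short window of maturation, and cells that go on toward monocytes switch to chemokine receptors, lysozyme, the S100A8 and S100A9 proteins, scavenger receptors and HLA class II molecules.

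Total counts of the 6 libraries ran from 6200015 to 9106478. Levels are given as CPM, counts scaled to a common TMM-adjusted library size, on which the libraries are comparable. A count of 0 allows up to 0.329 to 0.484 CPM of a library's total, by counting error only. Mitochondrial genes took 0.306% of counts in EV replicate 2 and 0.177% to 0.214% in the other 5 libraries. EV replicate 2, the deepest library, also stood apart by chi-square per degree of freedom on raw counts, a measure that grows with depth. It had 7.81 and 6.04 against the other EV libraries, where the other replicate pairs had 1.89 to 3.67. By Spearman correlation it stood less apart, with 0.992 to EV replicate 1 and 0.9943 to EV replicate 3, against 0.9942 to 0.9957 in the other pairs. Results that rest on EV replicate 2 are given without it as well. The myeloid identity of the line was checked on 12 markers, of which all 12 were tested. Their summed level was 2208 to 2449 CPM in EV and 2652 to 2754 CPM in KO. FLT3 had the highest mean of the 12 but was not called (log2 fold change 0.12, edgeR FDR 0.717). LYZ alone went from 332, 285 and 347 CPM in EV to 626, 627 and 624 CPM in KO. With LYZ, TYROBP was called higher, MPO was called lower, and 9 were not called (25% called, against 2.40% of all tested genes). Among 50 markers of T and NK cells, B cells, erythroid cells, platelets, epithelium, fibroblasts and endothelium, 13 were tested, 0 were called by edgeR or DESeq2, 2 had an unadjusted p under 0.05, and defining genes such as CD3E, MS4A1, PF4 and COL3A1 had 0 counts in all 6 libraries. The B cell sum, most of it PAX5, was 38.3 to 56.8 CPM in EV and 27.7 to 36.2 CPM in KO, and the T and NK cell sum, most of it IL7R, was 27.1 to 29.3 CPM in EV and 29.9 to 34.97 CPM in KO. The sums of the other 4 lists overlapped between the groups.

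The targeted gene was examined first. MPC1 (ENSG00000060762, chromosome 6, 166364919 to 166383013, minus strand) stood at 80.05, 79.002 and 72.9 CPM in EV and 33.2, 40.98 and 38.1 CPM in KO (log2 fold change −1.04, SE 0.09, edgeR FDR 3.41e-08). Every KO library lay below every EV library, and KO kept 48.5% of the EV level. A guide that cuts the gene changes its protein and need not remove its RNA, so the transcript that remained does not measure how much carrier was left. The study examined the protein by Western blot in Molm-14 EV and KO cells. It also reported lower basal respiration and lower maximal respiratory capacity in the Molm-14 KO cells. MPC2, the partner subunit, stood at 95.5, 82.9 and 90.9 CPM in EV and 78.8, 83.2 and 80.9 CPM in KO and was not called (log2 fold change −0.15, SE 0.09, edgeR FDR 0.658). Of the 15 other tested genes for pyruvate entry and pyruvate dehydrogenase, MPC2 included, 0 were called by edgeR or by DESeq2 and 0 had an unadjusted p under 0.05, and the best expressed of them, DLAT, DLD and PDHA1, had log2 fold changes of 0.01, −0.06 and 0.04.

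Across the genome, 348 of 14490 tested genes were called at a false discovery rate (FDR) under 5% in edgeR's quasi-likelihood test, 2.40% of those tested, with 194 higher in KO (1.34%) and 154 lower (1.06%). In all 348 the ranges of KO and EV did not overlap in CPM, which was true of 16.4% of all tested genes. The median size of a called change was 0.70 on the log2 scale, and 116 of the called genes changed by more than 1, that is by more than 2-fold. By level, 13 of 1901 tested genes under 1 CPM were called, 103 of 3499 between 1 and 10 CPM, 185 of 6425 between 10 and 100 CPM, and 47 of 2665 above 100 CPM. Protein-coding genes made up 331 of the calls and long noncoding RNAs 12. Chromosome 4 held 27 called genes of 504 tested, a share of 5.36%, chromosome 9 held 6 of 572 (1.05%), and the median log2 fold change of each autosome and of X lay within 0.02 of 0. The number of calls depended on single libraries and fell to 183 when KO replicate 2 was left out, to 218 when EV replicate 2 was, and to 231 when KO replicate 1 was. Of the 348 genes, 143 were called in all 6 fits that left out 1 Molm-14 library. None of the 348 changed sign in those fits, but groups without overlap could hardly change direction when 1 library was left out, so this is no added support.

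**Figure D1:**
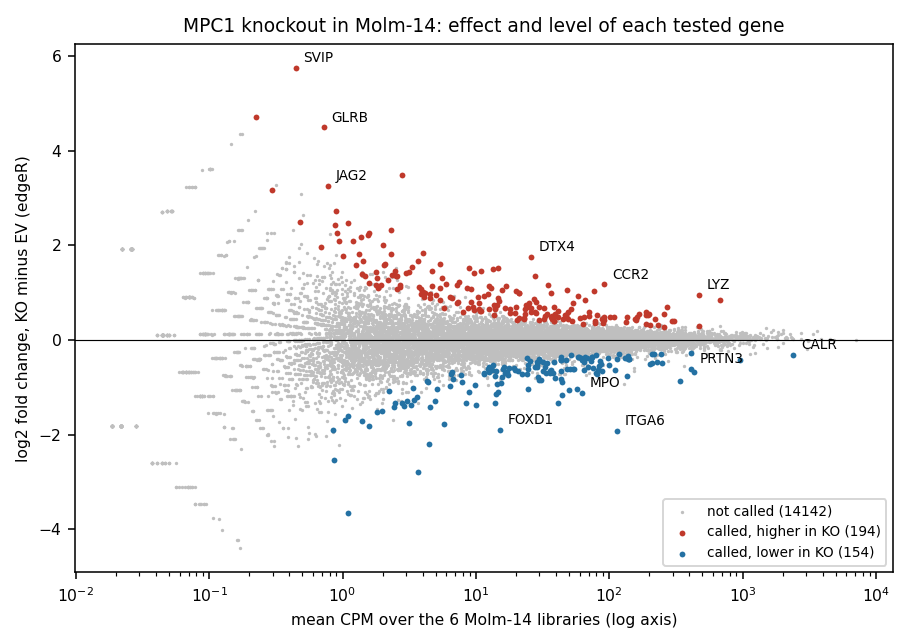
Log2 fold change (KO minus EV, edgeR) of each tested gene with counts in Molm-14 against its mean level in CPM over the 6 libraries, on a log axis. Red and blue points are the 194 genes called higher and the 154 called lower in KO, and grey points were not called. Calls below 1 CPM needed far larger changes, up to a log2 fold change of 5.75 for SVIP, than calls above 100 CPM, whose median size was 0.44.

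Of the called genes, 208 had a mean of at least 100 counts over the 6 libraries, and the 15 largest rises and 15 largest falls among them are described in turn. All 30 stayed called in each of the 6 fits without 1 library and under each other scaling, filter and tool tried. The largest rise was in DTX4, a Deltex-family E3 ubiquitin ligase, at 10.6, 13.6 and 11.1 CPM in EV and 41.6, 41.4 and 36.7 CPM in KO (log2 fold change 1.75, SE 0.13, edgeR FDR 3.20e-09). DTX4 overlaps MPEG1, the gene of the macrophage pore protein perforin-2, on the opposite strand over 79 exonic bases, and MPEG1 was called higher as well (log2 fold change 1.42, edgeR FDR 5.11e-06). No strand setting is given for the counting, and part of the reads of one gene may have been given to the other. An opposite-strand exon overlapped 14 of the 30 genes and 124 of the 348. C12orf75 stood at 6.39, 7.32 and 8.704 CPM in EV and 20.9, 21.95 and 22.03 CPM in KO (log2 fold change 1.52, SE 0.17, edgeR FDR 1.24e-06), with all KO libraries close together.

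TNF, the cytokine made by activated monocytes, stood at 16.5, 14.7 and 15.6 CPM in EV and 43.6, 42.2 and 32.97 CPM in KO (log2 fold change 1.35, SE 0.13, edgeR FDR 5.83e-08). CCR2, the receptor through which monocytes follow the chemokine CCL2, stood at 56.8, 49.5 and 63.3 CPM in EV and 124, 132 and 127 CPM in KO (log2 fold change 1.18, SE 0.10, edgeR FDR 3.01e-08). CCR1, another chemokine receptor of monocytes, stood at 20.9, 20.7 and 22.4 CPM in EV and 45.2, 51.2 and 47.3 CPM in KO (log2 fold change 1.17, SE 0.10, edgeR FDR 2.59e-08). In each of the 3 genes the lowest KO library had about 2 times the level of the highest EV library. S100A9, which pairs with S100A8 to form calprotectin, stood at 11.1, 7.88 and 12.4 CPM in EV and 23.8, 21.6 and 23.6 CPM in KO (log2 fold change 1.15, SE 0.18, edgeR FDR 2.99e-04), and its lowest value was that of EV replicate 2. ALOX5AP, the protein that presents arachidonic acid to 5-lipoxygenase in leukotriene synthesis, stood at 12.4, 13.96 and 16.1 CPM in EV and 30.7, 27.01 and 27.2 CPM in KO (log2 fold change 0.99, SE 0.12, edgeR FDR 4.48e-06). FGL2, a fibrinogen-like protein of macrophages and T cells, rose by 1.06 and MS4A6A, a membrane-spanning protein of monocytes and macrophages, by 1.05 on the log2 scale. LYZ, lysozyme, was the best expressed of the 15 and stood at 332, 285 and 347 CPM in EV and 626, 627 and 624 CPM in KO (log2 fold change 0.96, SE 0.10, edgeR FDR 8.32e-07). Its 3 KO libraries were within 3 CPM of one another, while 599 exonic bases of LYZ overlap a long noncoding RNA gene on the opposite strand.

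The remaining rises were in PLAC8, a small cysteine-rich protein of myeloid and plasmacytoid cells (from 50.5 ± 4.13 to 104 ± 8.12 CPM, SD, n = 3), in SLC37A2, a sugar phosphate transporter of macrophages (14.1 ± 1.36 to 27.9 ± 2.73 CPM), in MYO1G, a class I myosin of blood cells (40.4 ± 2.54 to 77.1 ± 4.79 CPM), in HS6ST2, a heparan sulfate 6-O-sulfotransferase (24.7 ± 2.47 to 49.03 ± 1.56 CPM), and in NAPSB, a transcribed pseudogene of the aspartic protease napsin A (13.1 ± 1.04 to 26.8 ± 4.17 CPM). Their log2 fold changes ran from 0.94 to 1.04. NAPSB is similar to NAPSA, so how its reads were assigned is less certain than for the other genes.

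The largest fall was in ITGA6, the integrin α6 chain that binds laminin, at 178, 169.7 and 192 CPM in EV and 48.2, 44.7 and 49.1 CPM in KO (log2 fold change −1.93, SE 0.11, edgeR FDR 5.76e-12). The KO libraries lay close together and far below the EV libraries. FOXD1, a forkhead factor, stood at 29.6, 19.7 and 23.1 CPM in EV and 6.62, 6.39 and 6.09 CPM in KO (log2 fold change −1.90, SE 0.16, edgeR FDR 3.41e-08), with a spread among the EV libraries wider than among KO. FOXP2, another forkhead factor, stood at 51.8, 69.5 and 61.3 CPM in EV and 29.1, 25.5 and 27.03 CPM in KO (log2 fold change −1.17, SE 0.11, edgeR FDR 3.41e-08). GATA2, a regulator of hematopoietic stem and progenitor cells, stood at 20.5, 21.3 and 18.1 CPM in EV and 8.03, 10.9 and 8.75 CPM in KO (log2 fold change −1.10, SE 0.17, edgeR FDR 1.35e-04), and OSR2, an odd-skipped zinc-finger factor, stood at 19.003, 17.8 and 19.8 CPM in EV and 9.92, 11.7 and 7.97 CPM in KO (log2 fold change −0.92, SE 0.15, edgeR FDR 3.15e-04). In each of the 4 genes the highest KO library lay below the lowest EV library, which the rule that chose the genes required.

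FBN2, fibrillin-2, a microfibril protein, stood at 52.5, 67.2 and 57.4 CPM in EV and 26.1, 24.2 and 20.5 CPM in KO (log2 fold change −1.33, SE 0.12, edgeR FDR 3.01e-08). MFAP4, a microfibril-associated glycoprotein, fell from 67.1 ± 7.58 to 32.4 ± 2.91 CPM, by 1.05 on the log2 scale. FMNL2, a formin that extends actin filaments, fell from 33.1 ± 1.33 to 16.3 ± 2.23 CPM, and KALRN, a guanine nucleotide exchange factor for small GTPases, from 19.6 ± 0.818 to 8.905 ± 0.389 CPM. SELENOP, a secreted selenium-carrying protein, stood at 21.5, 18.9 and 19.6 CPM in EV and 7.25, 8.12 and 8.44 CPM in KO (log2 fold change −1.33, SE 0.17, edgeR FDR 1.55e-05), but 26.4% of its exonic bases overlap CCDC152 on the opposite strand. FGFR3, a fibroblast growth factor receptor, had the weakest support of the 30 genes, with 21.02, 20.03 and 18.99 CPM in EV and 11.8, 11.04 and 9.06 CPM in KO (log2 fold change −0.91, SE 0.19, edgeR FDR 0.00503) and an FDR of 0.0457 without KO replicate 3. TMEM263, a small membrane protein, fell from 56.97 ± 3.54 to 30.9 ± 0.286 CPM. MPO and CTSG, the 2 granule proteins among the 15 falls, are described with their list.

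**Figure D2:**
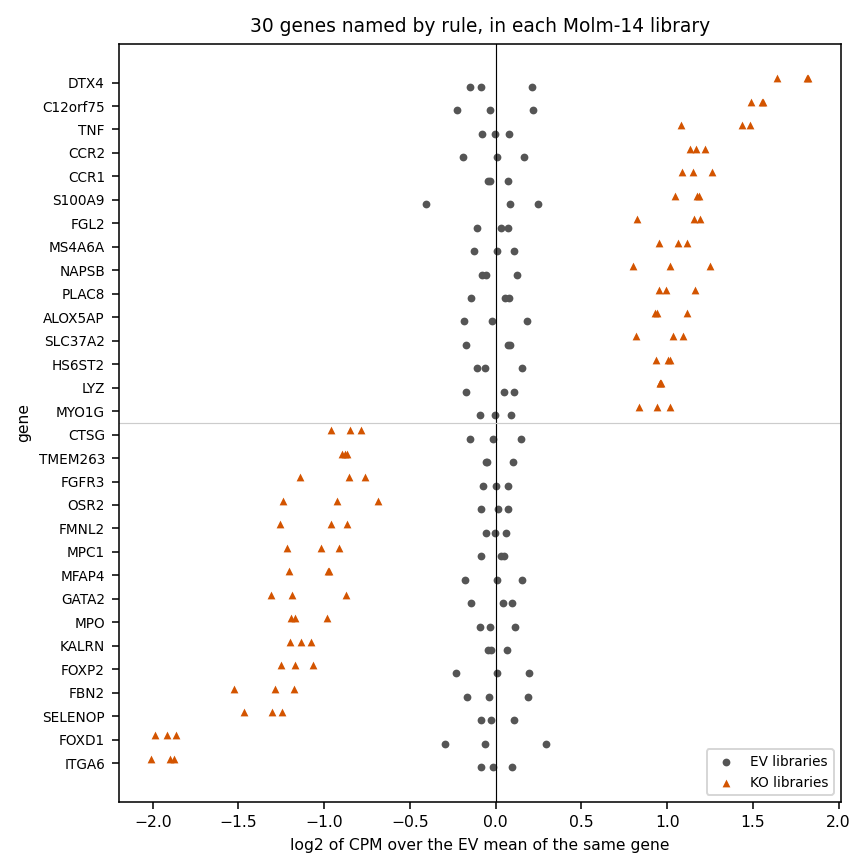
Level of each of the 30 genes in each Molm-14 library, as log2 of its CPM over the mean of the 3 EV libraries of the same gene. Grey circles are EV libraries and orange triangles KO libraries, the 15 rises lie above the line and the 15 falls below it. The rule that chose the genes required separated groups, and the gap is widest in ITGA6 and FOXD1.

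The list of primary granule proteins moved in both directions, with 4 falls and 1 rise among the 14 listed genes, all of which were tested. One of the falls was in MS4A3, a listed membrane protein of progenitors that is not itself a granule protein. Lists were chosen with earlier results of these data known, so none was tested as a set. The calls here were 35.7% of the list, against 2.40% of all tested genes. Over the list the median log2 fold change was −0.33, against 0 over all tested genes, and 11 of 14 lay below 0. MPO, myeloperoxidase, stood at 92.995, 84.1 and 80.7 CPM in EV and 43.5, 37.5 and 38.1 CPM in KO (log2 fold change −1.11, SE 0.10, edgeR FDR 3.41e-08). CTSG, the serine protease cathepsin G, stood at 488, 396 and 435 CPM in EV and 255, 243 and 226 CPM in KO (log2 fold change −0.86, SE 0.10, edgeR FDR 1.22e-06). PRTN3, proteinase 3, stood at 532, 499.7 and 468 CPM in EV and 358, 347 and 276 CPM in KO (log2 fold change −0.61, SE 0.12, edgeR FDR 0.00287). These 3 proteins are stored together in azurophil granules, and in each the highest KO library was below the lowest EV library, as in every called gene that fell. MS4A3, a membrane-spanning protein of granulocyte and monocyte progenitors, stood at 103, 101 and 119.9 CPM in EV and 66.3, 63.7 and 75.3 CPM in KO (log2 fold change −0.66, SE 0.11, edgeR FDR 4.10e-04). All 4 falls and the rise of LYZ were called in each of the 6 fits without 1 library. The best expressed members that were not called were SRGN, the proteoglycan that packs granule proteins (−0.20), ELANE, neutrophil elastase (−0.54, edgeR FDR 0.217), AZU1, azurocidin (−0.26), and CFD, complement factor D (−0.45, edgeR FDR 0.0683). ELANE and CFD separated the groups without overlap, as 16.4% of all tested genes did, although their FDR missed 5%.

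Genes of monocyte and macrophage maturation were called in 1 direction. Of 37 listed genes 25 were tested, and 5 rose and 0 fell (20% called, against 2.40% of all tested genes). The median was 0.49, and 19 of 25 lay above 0. Without EV replicate 2 the same counts were 5 and 0, with a median of 0.51. The 5 were CCR2, CCR1 and S100A9, given above, with S100A8 at 5.38, 6.75 and 5.54 CPM in EV and 13.5, 13.04 and 11.2 CPM in KO (log2 fold change 1.08, SE 0.18, edgeR FDR 3.43e-04) and CD36 at 19.2, 16.5 and 20.04 CPM in EV and 32.4, 30.7 and 31.9 CPM in KO (log2 fold change 0.77, SE 0.12, edgeR FDR 1.44e-04). CD36 is a scavenger receptor for oxidized lipids and fatty acids. The 4 best expressed other members were not called, with log2 fold changes of 0.08 for CD4, 0.14 for the oxidase subunit NCF4, −0.21 for the phagocytosis checkpoint receptor SIRPA and −0.06 for TLR2. Of the 12 genes not tested, CD68, CD163 and MRC1 are markers of macrophages, and the classical monocyte marker CD14, although tested, had under 0.5 CPM in every library.

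**Figure D3:**
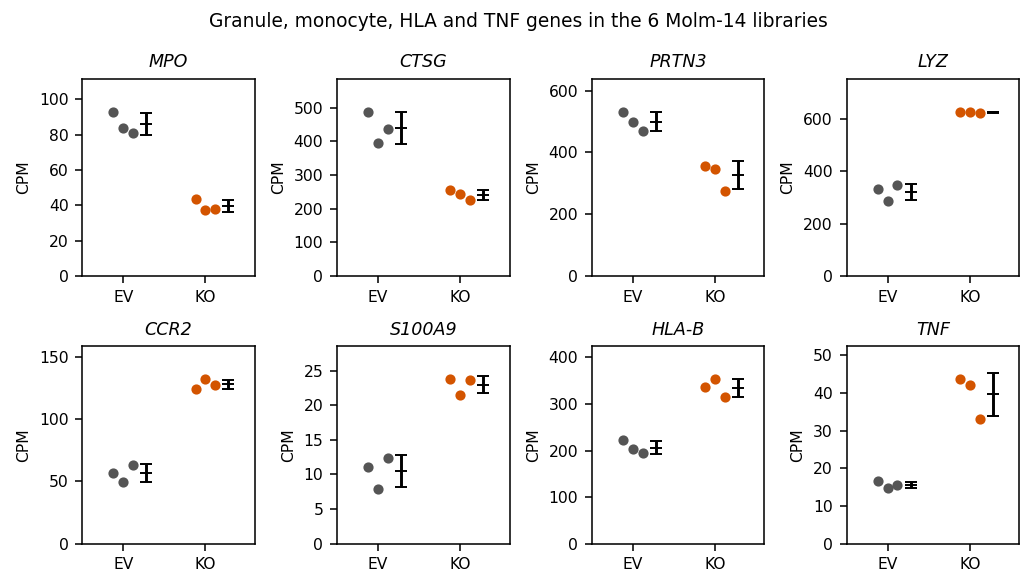
CPM of 8 genes in the 3 EV (grey) and 3 KO (orange) Molm-14 libraries, on axes that start at 0. Black bars give the mean ± SD of each group. MPO, CTSG and PRTN3 were lower, and LYZ, CCR2, S100A9, HLA-B and TNF higher, in all 3 KO libraries, with no overlap between the groups, as in every called gene.

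HLA genes rose in both classes. Class II molecules present peptides to CD4+ T cells, and 3 of the 10 tested members of that list (13 listed) were called, all higher (30%, against 2.40% of all tested genes). HLA-DRA, the shared α chain of HLA-DR, stood at 10.6, 9.903 and 11.5 CPM in EV and 18.7, 18.6 and 13.4 CPM in KO (log2 fold change 0.67, SE 0.16, edgeR FDR 0.021). CD74, the invariant chain that guides class II molecules through the cell, stood at 51.5, 53.01 and 47.9 CPM in EV and 79.9, 72.8 and 57.97 CPM in KO (log2 fold change 0.47, SE 0.13, edgeR FDR 0.0443). HLA-DRB1 stood at 5.04, 3.94 and 4.35 CPM in EV and 6.62, 7.32 and 7.19 CPM in KO (log2 fold change 0.68, SE 0.18, edgeR FDR 0.0357). All 10 tested members lay above 0, with a median of 0.54, and CIITA, the class II transactivator, stood at 0.09 on the log2 scale (edgeR FDR 0.99). All 3 calls were lost without EV replicate 2, KO replicate 1 or KO replicate 2, and without EV replicate 2 0 of the 10 were called by edgeR, although all 10 still lay above 0 with a median of 0.51. HLA-DRB1 was not called by DESeq2 (adjusted p = 0.057) or by edgeR in the 6 Molm-14 libraries alone (FDR 0.0855), nor CD74 with upper quartile factors (edgeR FDR 0.0563).

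Class I molecules present peptides to CD8+ T cells, and 4 of 17 genes of that list rose while 1 fell (29.4% called, against 2.40% of all tested genes). HLA-B stood at 222, 203 and 195 CPM in EV and 336, 353 and 314 CPM in KO (log2 fold change 0.70, SE 0.08, edgeR FDR 4.02e-06) and HLA-C at 144, 133 and 128 CPM in EV and 188, 189.6 and 162 CPM in KO (log2 fold change 0.41, SE 0.09, edgeR FDR 0.00577). HLA-E, which presents leader peptides to NK cell receptors, rose by 0.32 on the log2 scale (edgeR FDR 0.021). HLA-B stayed called in all 6 fits without 1 library, HLA-C was lost without KO replicate 2 (edgeR FDR 0.0595), and HLA-E was kept in the fits without KO replicate 3 or EV replicate 1 alone (edgeR FDR up to 0.16 in the others). CALR, calreticulin, a chaperone of class I loading and of the endoplasmic reticulum, fell by 0.31 and was called in 1 of the 6, that without EV replicate 2 (edgeR FDR up to 0.283 in the others), and it was lost with RLE factors (edgeR FDR 0.0612). B2M, the light chain of class I, was not called (0.17, edgeR FDR 0.662), nor were PDIA3, ERAP1 and PSMB8. The HLA genes are near-identical in parts and differ between people, so reads counted against the reference may be split or lost among them.

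CCAAT elements, bound by the factor NF-Y, occur in many promoters, and those of HLA class II hold a reversed CCAAT, the Y box, in their SXY module. Of the 7 HLA genes and partners called higher, 4 have a promoter in the RefSeq table used here (GRCh38.p14, 250 bases before to 50 after the start), and 3 of these hold the letters CTGATTGG on either strand, the form searched. The 3 are shown because members of both classes share these letters, though not in the same orientation, with the matched letters in capitals, 5′ to 3′ on the strand of the gene.
HLA-B (chr6:31357130-31357429, minus strand): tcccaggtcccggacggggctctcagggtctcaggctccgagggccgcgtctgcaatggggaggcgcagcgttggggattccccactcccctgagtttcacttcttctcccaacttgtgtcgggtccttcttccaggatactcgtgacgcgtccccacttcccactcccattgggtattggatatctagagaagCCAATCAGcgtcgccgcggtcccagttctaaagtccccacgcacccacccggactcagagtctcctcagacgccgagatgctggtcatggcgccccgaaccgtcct
HLA-C (chr6:31272043-31272342, minus strand): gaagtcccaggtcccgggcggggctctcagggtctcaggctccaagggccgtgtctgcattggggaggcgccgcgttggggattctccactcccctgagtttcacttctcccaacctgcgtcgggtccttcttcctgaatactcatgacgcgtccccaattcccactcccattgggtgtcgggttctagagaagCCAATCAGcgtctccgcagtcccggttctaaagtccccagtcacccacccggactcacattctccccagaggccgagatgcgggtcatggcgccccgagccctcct
HLA-DRB1 (chr6:32589799-32590098, minus strand): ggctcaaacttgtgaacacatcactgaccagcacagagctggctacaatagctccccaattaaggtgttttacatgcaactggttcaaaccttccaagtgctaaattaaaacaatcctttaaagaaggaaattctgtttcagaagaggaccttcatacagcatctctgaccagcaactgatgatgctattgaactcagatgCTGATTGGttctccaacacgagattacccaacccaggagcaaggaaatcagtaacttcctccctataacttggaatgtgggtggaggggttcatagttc
In HLA-DRB1 the capitals hold a reversed CCAAT, the orientation of a Y box, 49 bases before the start. In HLA-B and HLA-C they begin 56 bases before the start and read CCAATCAG, a forward CCAAT on the strand of the gene, which is opposite to the orientation of a Y box. Both of these windows also hold a reversed CCAAT, the letters attgg, upstream of the capitals, which the form searched did not cover. The same letters were in the promoters of 4.75% of all genes in the table, 6.72% of tested genes, 7.19% of genes called higher and 4.13% of genes called lower. The match is a description of the sequence and not of binding.

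A motif of the myeloid factor PU.1, searched as GAGGAAGT on both strands, was looked for in the same windows, of which 274 of the 348 called genes had at least 1. It was in the promoters of 15 of 153 genes called higher (9.80%), 6 of 121 called lower (4.96%), 3.78% of tested genes and 3.15% of all genes in the table. Examples from both directions are shown with the motif in capitals.
TYROBP (chr19:35908246-35908545, minus strand): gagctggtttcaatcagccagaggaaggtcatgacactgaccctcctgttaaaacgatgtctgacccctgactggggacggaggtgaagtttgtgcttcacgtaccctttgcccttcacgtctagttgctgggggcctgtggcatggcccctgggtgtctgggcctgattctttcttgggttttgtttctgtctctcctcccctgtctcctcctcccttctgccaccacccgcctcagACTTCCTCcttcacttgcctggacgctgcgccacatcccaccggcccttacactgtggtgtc
ALOX5AP (chr13:30713235-30713534, plus strand): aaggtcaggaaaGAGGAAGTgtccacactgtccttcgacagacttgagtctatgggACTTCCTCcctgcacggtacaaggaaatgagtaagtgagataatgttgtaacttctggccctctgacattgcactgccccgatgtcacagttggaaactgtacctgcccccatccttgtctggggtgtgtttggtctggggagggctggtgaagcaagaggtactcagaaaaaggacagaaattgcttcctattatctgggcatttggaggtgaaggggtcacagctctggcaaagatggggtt
PRTN3 (chr19:840749-841048, plus strand): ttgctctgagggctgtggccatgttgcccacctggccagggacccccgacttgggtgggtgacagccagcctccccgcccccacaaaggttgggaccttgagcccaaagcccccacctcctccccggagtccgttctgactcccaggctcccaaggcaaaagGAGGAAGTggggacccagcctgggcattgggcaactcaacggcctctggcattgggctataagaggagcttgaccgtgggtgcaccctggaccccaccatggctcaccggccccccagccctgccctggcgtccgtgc
TYROBP, the adaptor DAP12 of many myeloid receptors, stood at 11.9, 10.02 and 11.5 CPM in EV and 17.2, 13.97 and 17.3 CPM in KO (log2 fold change 0.54, SE 0.14, edgeR FDR 0.0392), ALOX5AP rose and PRTN3 fell as given above. The gene of PU.1, SPI1, was not called (log2 fold change 0.07, edgeR FDR 0.948). IRF8, a partner of PU.1 that directs monocyte and dendritic cell development, was in no list and is named after its values were seen. It stood at 499, 441 and 518 CPM in EV and 851, 894 and 860.2 CPM in KO (log2 fold change 0.84, SE 0.08, edgeR FDR 1.40e-07), and all its KO libraries lay above all EV libraries, as in every called gene that rose.

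Within the TNF and NF-kB list, 3 of 29 tested genes rose and 1 fell (13.8% called, against 2.40% of all tested genes), with a median of 0.11. Besides TNF, the neutrophil chemokine CXCL8 stood at 1.01, 1.01 and 1.05 CPM in EV and 2.21, 2.39 and 3.12 CPM in KO (log2 fold change 1.31, SE 0.35, edgeR FDR 0.0427), and TNFRSF1B, TNF receptor 2, at 33.6, 31.1 and 31.9 CPM in EV and 47.7, 46.03 and 44.1 CPM in KO (log2 fold change 0.52, SE 0.12, edgeR FDR 0.0124). CXCL8 had few counts and was called in 0 of the 6 fits without 1 library (edgeR FDR up to 0.199) and not by DESeq2 (adjusted p = 0.0584). TNFRSF1B was called in 2 of them, those without KO replicate 3 or EV replicate 1. REL, the c-Rel subunit of NF-kB, fell by 0.60 on the log2 scale and was lost without KO replicate 1, KO replicate 2 or EV replicate 2 (edgeR FDR up to 0.188). The best expressed of the others, NFKB1, the p105 precursor of the p50 subunit (−0.00), TNFAIP8 (0.15), TNFRSF1A, TNF receptor 1 (−0.04), and TNIP1, a partner of the inhibitor A20 (0.05), were not called.

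Interferon-stimulated genes leaned the other way, with 3 falls and 0 rises among 38 tested (7.89% called, against 2.40% of all tested genes), a median of −0.18 and 28 of 38 below 0. HERC5, the ligase that attaches ISG15 to proteins, stood at 71.5, 59.9 and 66.7 CPM in EV and 38.3, 44.6 and 45.6 CPM in KO (log2 fold change −0.62, SE 0.12, edgeR FDR 0.00228). OAS3, which makes the oligoadenylates that activate RNase L, stood at 7.23, 9.45 and 8.57 CPM in EV and 4.57, 4.52 and 3.91 CPM in KO (log2 fold change −0.97, SE 0.21, edgeR FDR 0.00795), and IFITM1, an inhibitor of viral entry, at 1.51, 2.03 and 1.45 CPM in EV and 0.473, 0.665 and 0.469 CPM in KO (log2 fold change −1.61, SE 0.40, edgeR FDR 0.0255). Only HERC5 stayed called without EV replicate 2, where the median was −0.19, and IFITM1 was also lost without any 1 KO replicate (edgeR FDR up to 0.202), in the 6 Molm-14 libraries alone (edgeR FDR 0.0567) and in DESeq2 (adjusted p = 0.0633). Of the best expressed members, PARP14 (−0.18), TRIM22 (0.01) and SAMD9 (−0.02), were not called.

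Receptors for cytokines and growth factors gave 5 rises and 0 falls among 33 tested (15.2% called, against 2.40% of all tested genes). Beside CCR1 and CCR2 these were CXCR4, the receptor that holds leukemic cells in the marrow niche, at 85.9, 79.9 and 86.4 CPM in EV and 112, 122 and 119 CPM in KO (log2 fold change 0.49, SE 0.10, edgeR FDR 0.00643), CXCR2, a receptor of neutrophil chemokines, at 3.87, 2.48 and 3.297 CPM in EV and 5.198, 6.25 and 6.09 CPM in KO (log2 fold change 0.90, SE 0.20, edgeR FDR 0.00954), and KIT, the stem cell factor receptor, at 0.336, 1.13 and 0.923 CPM in EV and 2.21, 2.26 and 2.03 CPM in KO (log2 fold change 1.34, SE 0.36, edgeR FDR 0.0392). KIT stayed near 2 CPM even in KO and was called in 1 of the 6 fits without 1 library, that without EV replicate 2, and its FDR was 0.0867 in edgeR's fit of the 6 Molm-14 libraries alone. CXCR2 was lost without KO replicate 2 or EV replicate 2 (edgeR FDR up to 0.135) and CXCR4 without KO replicate 2 (0.0533). FLT3, the best expressed receptor, stood at 606, 549.9 and 643 CPM in EV and 625, 639 and 685 CPM in KO and was not called (log2 fold change 0.12, edgeR FDR 0.717).

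Integrin genes gave 2 rises and 1 fall among 19 tested (15.8% called, against 2.40% of all tested genes). ITGB7, the β7 chain that pairs with α4 and αE, stood at 8.58, 7.202 and 7.65 CPM in EV and 15.9, 17.3 and 18.1 CPM in KO (log2 fold change 1.14, SE 0.16, edgeR FDR 4.45e-05), although 42.3% of its exonic bases overlap ZNF740 on the opposite strand, which was not called. ITGAL, the αL chain of LFA-1, stood at 154, 172 and 156 CPM in EV and 269, 232 and 203 CPM in KO (log2 fold change 0.54, SE 0.10, edgeR FDR 0.00201). ITGA6 fell as given above, while its partner chain ITGB1 (−0.11) and ITGA4, ITGB2 and ITGA5 (0.21, 0.12 and 0.13) were not called. In the Notch list DTX4 and the ligand JAG2 rose and 0 of 29 fell (6.90% called, against 2.40% of all tested genes), and the median was close to 0. JAG2 went from 2, 1 and 0 counts in EV to 8, 14 and 7 in KO, so its size is poorly known, and the best expressed ligand JAG1 was not called (−0.09).

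Genes of the stem and progenitor leukemia program had no common direction, with 2 rises, 2 falls and a median of 0.02 over 30 tested (13.3% called, against 2.40% of all tested genes). LMO2, a bridging factor of hematopoietic transcription complexes, stood at 80.05, 76.6 and 79.1 CPM in EV and 97.5, 102.05 and 103 CPM in KO (log2 fold change 0.36, SE 0.08, edgeR FDR 0.0108), a call lost without KO replicate 2, KO replicate 3 or EV replicate 2 (edgeR FDR up to 0.0682), and KIT and GATA2 have been described. CD38, an ectoenzyme that marks committed progenitors, stood at 67.9, 82.8 and 77.5 CPM in EV and 59.1, 57.1 and 61.3 CPM in KO (log2 fold change −0.37, SE 0.09, edgeR FDR 0.0304), and its call was kept in 1 of the 6 fits without 1 library, that without EV replicate 1 (edgeR FDR up to 0.227 in the others), and it was lost without the filter (edgeR FDR 0.0619). The transcription factors MYB (−0.22), ZEB2 (−0.17) and CEBPA (0.01), with FLT3 the best expressed members left, were not called. FOS, an immediate early gene in the MAPK list, rose and stood at 6.56, 7.32 and 7.78 CPM in EV and 14.2, 13.3 and 13.6 CPM in KO (log2 fold change 0.91, SE 0.14, edgeR FDR 2.16e-04), as the 1 call among 28 tested genes of MAPK and STAT5 feedback (3.57%, near the 2.40% of all tested genes). DUSP6, a feedback phosphatase of ERK, was not called (−0.05).

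**Figure D4:**
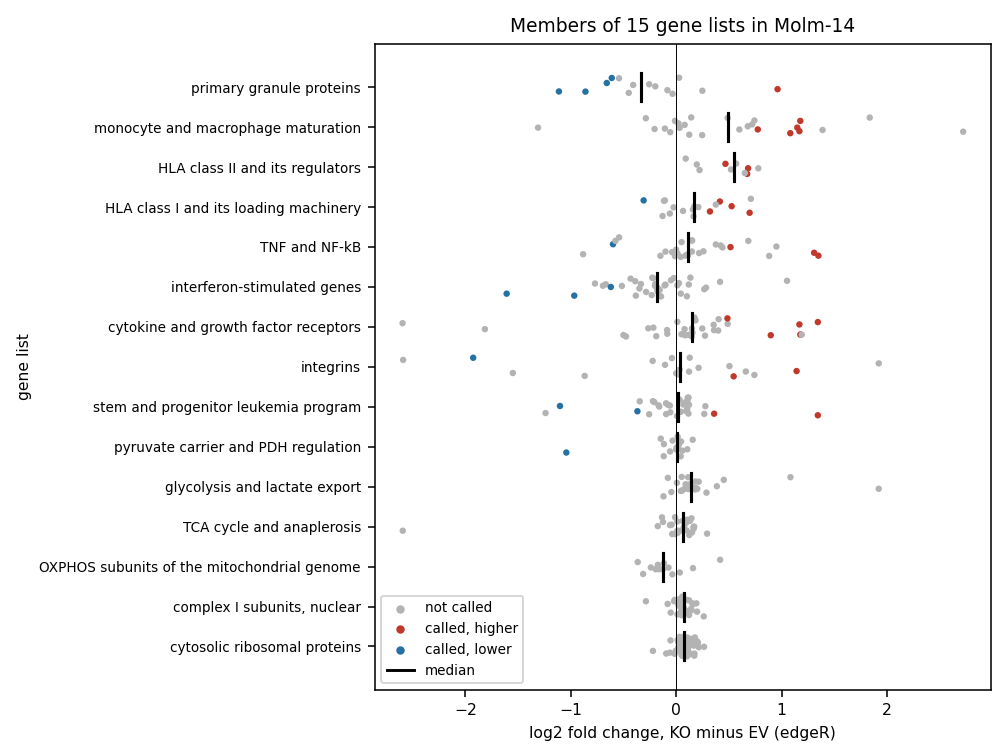
Log2 fold change (KO minus EV, edgeR) of each tested member of 15 gene lists. Red and blue points are genes called higher and lower, grey points were not called, and black bars are list medians. The medians of the granule proteins and the interferon-stimulated genes lie left of 0 and those of the maturation and HLA class II lists right of it, while the metabolic and ribosomal lists lie close to 0 with few or no calls.

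Metabolic genes held few calls. Among 25 genes of glycolysis and lactate export, 7 of the pentose phosphate pathway, 29 of the TCA cycle and anaplerosis, 23 of fatty acid oxidation, 24 of cholesterol synthesis, 16 of fatty acid synthesis and 15 of serine and one-carbon metabolism, 0 were called by edgeR, and 6, 0, 6, 0, 1, 2 and 4 of them were higher and 1, 0, 1, 1, 3, 3 and 0 lower in KO without overlap. An unadjusted p under 0.05 was found in 2, 0, 3, 1, 3, 4 and 2 of them, 15 of 139 in all (10.8%) against 10.7% of all tested genes, and DESeq2 called 1, in fatty acid synthesis. Over all tested genes edgeR called 2.40%, and 16.4% did not overlap between the groups. In glycolysis 22 of 25 lay above 0 with a median of 0.14, and GAPDH (0.14), ENO1 (0.15), LDHB (0.11) and ALDOA (0.05) were its best expressed genes. Enzymes around the TCA cycle were close to 0 as well, with 0.10 for ATP citrate lyase (ACLY), 0.06 for fumarase (FH) and 0.12 for glutamate dehydrogenase (GLUD1), which feeds glutamate into the cycle. SLC7A11, the cystine and glutamate exchanger, was the 1 call among 17 genes of glutamine use (5.88%) and among 25 of the ATF4 response (4%), against 2.40% of all tested genes. It stood at 119.6, 144 and 125 CPM in EV and 101, 97.7 and 97.97 CPM in KO (log2 fold change −0.39, SE 0.08, edgeR FDR 0.00734), and its call was lost without KO replicate 2 or EV replicate 2. ARRDC4, a glucose-sensing arrestin induced by MondoA, stood at 14.5, 15.5 and 15.03 CPM in EV and 9.77, 9.58 and 10.2 CPM in KO (log2 fold change −0.61, SE 0.12, edgeR FDR 0.00318). TXNIP, the other classical MondoA target, stood at 216, 191 and 213 CPM in EV and 197, 196 and 197 CPM in KO (log2 fold change −0.07, SE 0.08, edgeR FDR 0.853) and was not called.

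Subunits of oxidative phosphorylation differed in direction between the genomes, a difference that rested on 1 library. Of 74 tested nuclear subunits of complexes I, III, IV and V, 69 lay above 0 with a median of 0.08, 0 were called by edgeR or DESeq2, 4 had an unadjusted p under 0.05, and 8 did not overlap between the groups. Over all tested genes edgeR called 2.40%, 10.7% had such a p, and 16.4% did not overlap. Of the 13 subunits encoded in mitochondrial DNA, 10 lay below 0, with a median of −0.12, 0 calls by edgeR or DESeq2 and 0 genes at an unadjusted p under 0.05. Without EV replicate 2, the library with the highest mitochondrial share, 9 of the 13 lay above 0 with a median of 0.06, and the medians of the 4 nuclear complexes were 0.00 to 0.03. Cytosolic ribosomal proteins behaved alike, with 73 of 79 above 0 and a median of 0.07 over all libraries, and 46 of 79 and 0.01 without that library. None of the 79 was called by edgeR, 3 had an unadjusted p under 0.05 and DESeq2 called 1. No gene was called by edgeR in the lists of hypoxia (13 tested), BCL2 family (17), p53 targets (21) and DNA replication and mitosis (48), where 2, 2, 4 and 9 genes (15.4%, 11.8%, 19.0% and 18.8%) did not overlap between the groups, near the 16.4% of all tested genes. In those lists 1, 0, 3 and 2 genes had an unadjusted p under 0.05, and DESeq2 called 1, a p53 target. In the glutathione and thioredoxin list GPX1, glutathione peroxidase 1, rose by 0.41 on the log2 scale (edgeR FDR 0.0224) and was lost without EV replicate 2 or any KO replicate (up to 0.188), and SELENOP fell as given above. These calls were 7.41% of the genes tested in that list, against 2.40% of all tested genes.

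A small set of genes went from almost no counts to some, or the reverse. In 11 called genes every library of 1 group had at most 3 counts, 9 of them in EV and 2 in KO. They are named after their values were seen. SVIP, an inhibitor of endoplasmic-reticulum-associated degradation, had 0 counts in all EV libraries and 5, 13 and 1 in KO. That is 6.96-fold a floor of 3 counts over the EV group, a value that leaves out the counting error of KO and is no lower bound. SVIP also overlaps a gene on the opposite strand over 192 exonic bases. PLCB1, phospholipase C β1, had 0 in EV and 1, 3 and 5 in KO, 3.29-fold the same floor with the same limit. GLRB, the β subunit of the glycine receptor, had 0, 1 and 0 in EV and 5, 7 and 16 in KO. In the other direction GPRIN3 went from 8, 10 and 12 counts in EV to 2, 3 and 2 in KO (edgeR FDR 0.0342). These levels show presence or near absence of reads, and the fitted sizes of the changes depend on the prior count.

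To compare the changes in Molm-14 with those in the other lines, the difference of the KO effect between lines was tested in the same model. The effect differed from that in MV4-11 in 215 genes (1.48% of those tested) and from that in THP-1 in 111 genes (0.766%). Of the 348 genes called in Molm-14, 91 differed from MV4-11, 98 from THP-1 and 52 from both. The Molm-14 libraries that chose these genes also enter the differences, which favours larger effects in Molm-14. The effect was larger in size in Molm-14 in 81 of the 91 genes and in all 98. In MV4-11 itself 784 genes were called (5.41%), of which 50 were called in the same direction in Molm-14, 14.4% of the Molm-14 calls and 6.38% of the MV4-11 calls, and 15 in the opposite direction. In THP-1 13 genes were called (0.0897%), and 3 of them, MPC1, ARRDC4 and S100A8, were called in the same direction in Molm-14.

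MPC1 itself fell in all 3 lines, by log2 fold changes of −1.04, −1.18 and −0.84 in Molm-14, MV4-11 and THP-1, and the Molm-14 effect was not called different from either (95% intervals of the difference −0.14 to 0.41 and −0.47 to 0.07). Of the chemokine receptor genes called in Molm-14, CCR2 and CCR1 differed from both lines. CXCR2 differed from MV4-11 (difference 1.05, edgeR FDR 0.0172) but was not called different from THP-1 (0.87, edgeR FDR 0.0942). CXCR4 was not called different from MV4-11 (0.20, edgeR FDR 0.572) or THP-1 (0.33, edgeR FDR 0.58). CCR2 had effects of 0.28 in MV4-11 (difference 0.90, edgeR FDR 4.18e-04) and 0.11 in THP-1 (difference 1.07, edgeR FDR 4.86e-05), although those lines had more CCR2 in EV, with means of 377 and 398 CPM. CCR1 rose in MV4-11 as well, by 0.53, less than in Molm-14 (difference 0.64, edgeR FDR 0.00978), and had an effect of −0.06 in THP-1 (difference 1.23, edgeR FDR 4.33e-06). LYZ was not called in MV4-11 (−0.06, difference 1.02, edgeR FDR 1.60e-04) or THP-1 (0.27, difference 0.70, edgeR FDR 0.0121). TNF differed from MV4-11 (−0.29 there, difference 1.64, edgeR FDR 4.97e-06) but was not called different from THP-1 (interval 0.44 to 1.75), where its level was near 2 CPM.

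Among the members of the granule list, CTSG had effects of −0.25 in MV4-11 and 0.35 in THP-1 and differed from both (difference −0.61, edgeR FDR 0.0161, and difference −1.21, edgeR FDR 4.33e-06). MS4A3 differed from both as well (difference −0.86, edgeR FDR 0.00157, and difference −0.82, edgeR FDR 0.00328). MPO was −0.46 and −0.37 in the other lines, lower in size than in Molm-14, but the differences were not called (intervals −1.02 to −0.28 and −1.13 to −0.35). PRTN3 fell in MV4-11 too (−0.72), and the interval of the difference was −0.23 to 0.44. For HLA genes, HLA-B differed from both lines (difference 0.48, edgeR FDR 0.0314, and difference 0.54, edgeR FDR 0.0163), while HLA-DRA rose in MV4-11 (0.83) and its difference from Molm-14 had an interval of −0.60 to 0.29.

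Of the falls, ITGA6 went in the opposite direction in MV4-11, where it rose by 0.54 (difference −2.46, edgeR FDR 4.57e-09), and had an effect of −0.18 in THP-1 (difference −1.75, edgeR FDR 3.27e-06). TMEM263 likewise rose in MV4-11, by 0.58 (difference −1.46, edgeR FDR 2.51e-06), and CD38 by 0.77 (difference −1.14, edgeR FDR 8.61e-05). FOXP2, well expressed in both other lines, had effects of 0.11 and 0.04 there (difference −1.28, edgeR FDR 4.35e-06, and difference −1.21, edgeR FDR 8.14e-06). FBN2, which stood at 277 CPM in THP-1 EV, had an effect of −0.10 there (difference −1.22, edgeR FDR 3.00e-05). The reverse pattern was seen in TXNIP, which fell in MV4-11 (−0.59) and THP-1 (−0.64) and differed in Molm-14 from both (difference 0.52, edgeR FDR 0.0167, and difference 0.57, edgeR FDR 0.00862). ARRDC4 fell in all 3 lines, with −1.16 in MV4-11 and −1.02 in THP-1, and its Molm-14 effect was not called different (intervals 0.22 to 0.88 and 0.09 to 0.72). FOXD1, HS6ST2, KALRN and MFAP4 had means of 0 CPM in MV4-11 EV, so no fold is given for them there.

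**Figure D5:**
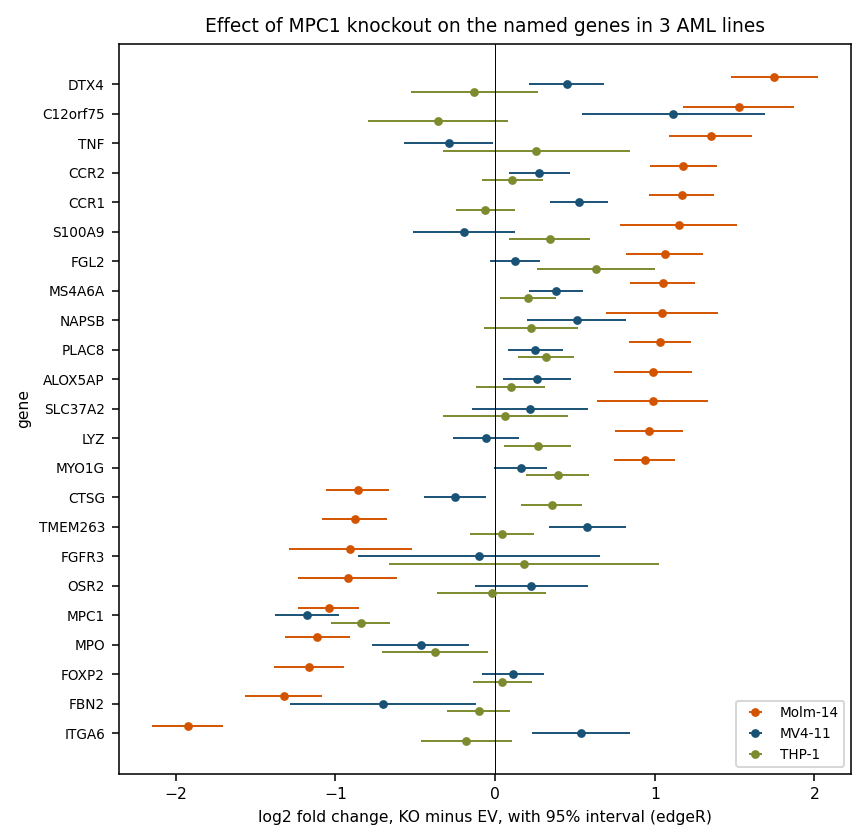
Log2 fold change (KO minus EV, edgeR) in Molm-14 (orange), MV4-11 (blue) and THP-1 (green) of the 23 of the 30 genes that had means of at least 1 CPM in both groups of all 3 lines, with 95% intervals. MPC1 was lower in all 3 lines, whereas the Molm-14 intervals of DTX4, CCR2, LYZ, FOXP2 and ITGA6 lie clear of those of both other lines. The genes were chosen by the size of their change in Molm-14, which favours larger effects there.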

How the data were processed

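RNA of 18 knockout libraries was analysed, 6 of them Molm-14. The deposited values were raw counts per gene. Per the labels, libraries came from a stranded total RNA kit with ribosomal depletion, and the authors aligned reads to GRCh38 with STAR 2.7.6a and counted genes with featureCounts 1.6.3, with no strand setting given. Genes were filtered with filterByExpr and fitted with edgeR 4.0.16 (R 4.3.3), TMM factors, robust quasi-likelihood and a mean for each of 6 groups. P-values were adjusted over 14490 genes by the Benjamini-Hochberg method, and an FDR under 5% was called. Means are ± SD. Symbols and positions came from GENCODE 44, which held 14390 of the tested IDs, and SOD2 was not matched. Named genes were MPC1, the 15 largest changes each way among called genes of at least 100 mean counts without overlap, called members of 33 lists, up to 4 uncalled members of each by level, and those said to be chosen later, with MPC2, CIITA, CD14, SPI1 and MPEG1. Members and lists were chosen with earlier results of these data known. The fit was tested on simulated counts. Alternatives were other scalings, DESeq2 1.42.0, filters, library subsets and a replicate block. The overexpression table was not used here. A few genes are not reported here.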

Additional observations from a re-analysis of the deposited data

Results flagged for a closer look

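The effect of the knockout differed between Molm-14 and MV4-11 in 215 genes and between Molm-14 and THP-1 in 111 genes, by edgeR's test of the difference itself at an FDR under 5%. The named genes among them follow as log2 differences, Molm-14 minus the other line. All of them are differences between 2 contrasts of 3 against 3 libraries. Apart from TXNIP, the genes were named because they were called in Molm-14. The same Molm-14 libraries enter the differences, which favours larger effects in Molm-14.

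Against MV4-11, the effect was higher in Molm-14 by 3.03 for JAG2, 1.64 for TNF, 1.35 for S100A9, 1.30 for DTX4, 1.05 for FOS, 1.05 for CXCR2, 1.02 for LYZ, 0.94 for FGL2, 0.90 for CCR2, 0.78 for PLAC8, 0.78 for MYO1G, 0.73 for ALOX5AP, 0.67 for MS4A6A, 0.64 for CCR1, 0.57 for ITGAL, 0.52 for TXNIP and 0.48 for HLA-B. The difference was −6.18 for KALRN, −2.46 for ITGA6, −2.14 for IFITM1, −1.46 for TMEM263, −1.28 for FOXP2, −1.15 for OSR2, −1.14 for CD38, −0.86 for MS4A3 and −0.61 for CTSG on the same log2 scale.

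Against THP-1, the effect was higher in Molm-14 by 3.27 for JAG2, 1.88 for C12orf75, 1.88 for DTX4, 1.23 for CCR1, 1.07 for CCR2, 1.06 for FOS, 0.89 for ALOX5AP, 0.88 for CD36, 0.84 for MS4A6A, 0.72 for PLAC8, 0.70 for LYZ, 0.57 for TXNIP, 0.54 for MYO1G and 0.54 for HLA-B. The difference was −2.41 for SELENOP, −1.95 for FOXD1, −1.80 for MFAP4, −1.75 for ITGA6, −1.22 for FBN2, −1.21 for CTSG, −1.21 for FOXP2, −0.93 for TMEM263 and −0.82 for MS4A3 on the same log2 scale.

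KALRN had a mean of 0 CPM in MV4-11 EV, so its difference from MV4-11 depends on the prior count and is no bound. JAG2 had at most 2 counts in each Molm-14 EV library, and SELENOP and MFAP4 stood near 1 CPM or lower in the THP-1 EV libraries, so the sizes of those differences are poorly known. IFITM1 stood near 2 CPM or lower in all Molm-14 libraries. What sets the lines apart was not tested.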

How the results depend on the processing

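Under DESeq2, RLE or upper quartile factors, no filter beyond 1 count, the 6 Molm-14 libraries alone and the replicate block, the Molm-14 count stayed between 324 and 412 genes, within 1.5 times the 348 reported. MPC1 stayed called in every alternative, with log2 fold changes of −1.11 to −0.96. Leaving out 1 Molm-14 library gave 183 to 293 genes in Molm-14 (116 to 160 higher, 67 to 133 lower), 116 to 205 for the difference from MV4-11 (74 to 131 higher, 42 to 74 lower) and 78 to 97 for that from THP-1 (50 to 66 higher, 25 to 33 lower). The difference from MV4-11 without KO replicate 2 held 117 genes and without EV replicate 3 116. Without the filter, the differences from MV4-11 and THP-1 held 339 genes (256 higher) and 159 (113 higher). Same-numbered EV and KO libraries had correlations of deviations of −0.03, −0.12 and 0.13, so the numbers do not pair them. With a replicate block the Molm-14 count was 339, and the difference from MV4-11 had 388 genes (214 higher, 174 lower) against 215. Why the block and the filter moved the differences was not tested. None of the 60 called genes among MPC1, the 30 largest changes and the list members changed sign in the alternatives tried. Their groups did not overlap, as in every called gene, so a change of sign was hardly possible and its absence is no added support. Of 717 list members tested and not called, 249 changed sign in at least 1 of the alternatives and 19 were called in at least 1. Of the 30 called list members outside the 30 largest changes, 12 stayed called without each single library and 22 in every setting that kept all Molm-14 libraries. The replicate block ended 5 of those calls, with edgeR FDRs of 0.0602 for HLA-DRB1, 0.0784 for KIT, 0.0634 for IFITM1, 0.0611 for CD38 and 0.0611 for GPX1. With 3 libraries a group, an exact permutation test of 1 gene cannot go below p = 0.1, and genes under 1 CPM had few counts to compare. The sum and median of each list without EV replicate 2 were chosen after seeing the data, and libraries of the other lines were not left out in turn.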

Other observations

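Other groups of called genes were in none of the lists, and the following were chosen after their values were seen, so they are values only. Further genes of monocytes and macrophages rose beside IRF8 and MPEG1, among them LILRB4, an inhibitory immunoglobulin-like receptor (23.04, 20.4 and 18.1 CPM in EV and 35.4, 38.98 and 32.2 CPM in KO, log2 fold change 0.80, edgeR FDR 2.02e-05), LY86, the MD-1 partner of the toll-like protein RP105 (log2 fold change 0.89, edgeR FDR 2.86e-04), S100A4 (0.77, 5.11e-06), and the nuclear receptor PPARG (0.336, 0.338 and 0.923 CPM in EV and 2.05, 2.66 and 2.97 CPM in KO, log2 fold change 2.22, edgeR FDR 5.79e-04). In contrast MNDA, the myeloid nuclear differentiation antigen, fell (50.6, 46.5 and 52.7 CPM in EV and 25.8, 26.5 and 33.9 CPM in KO, log2 fold change −0.80, edgeR FDR 4.53e-04), as did EPX, the eosinophil peroxidase (15.6, 13.96 and 14.1 CPM in EV and 5.99, 4.92 and 5.94 CPM in KO, −1.37, 4.44e-05), and NFE2, a factor of megakaryocytes and erythroid cells (−0.47, 0.0283). The eosinophil granule gene RNASE3 was not called (−0.03).

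In the COPII coat, which carries proteins out of the endoplasmic reticulum, 3 subunits called lower by small amounts were picked out. The other subunits are not given, so nothing is said of the coat as a group. The log2 fold changes were −0.41 for SEC23A (edgeR FDR 0.00723), −0.38 for SEC24D (edgeR FDR 0.021) and −0.30 for SEC31A (edgeR FDR 0.0138), without overlap between the groups, as in every called gene. Both caveolins called, CAV1 (3.195, 4.502 and 2.901 CPM in EV and 1.73, 1.06 and 1.25 CPM in KO) and CAV2 (1.18, 1.801 and 1.45 CPM in EV and 0, 0.133 and 0.625 CPM in KO), were lower in every KO library, with edgeR FDRs of 0.00512 and 0.0119. Of the receptor tyrosine kinases, RET (log2 fold change −0.49, edgeR FDR 0.01), ROS1 (−0.82, 0.0079) and EPHB2 (−1.40, 0.0101) were called lower beside FGFR3, while KIT rose and FLT3 was not called. The other members of that family are not given, and 2.40% of all tested genes were called.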
